A study of Mus musculus with 6 samples.

Results

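The integrated stress response and the unfolded protein response were followed through 40 genes in the epidermis of newborn mice. The genes were taken by symbol from a count table of 54532 genes, and all 40 were found in it and passed the filter on low counts. They comprise 6 genes of stress sensors and the factors they act through, 16 genes attributed to the transcription factor ATF4 (the ATF4 arm) and 18 genes of protein folding and degradation in the endoplasmic reticulum (the ER arm). RNA-seq covered 3 libraries of genotype Paxbp1 knockout and 3 of genotype Wildtype, all from epidermis freed of dermis with Dispase II. The sources used here give neither the allele, nor the driver of the deletion, nor the strain, nor how many animals made up a library. The p-values therefore speak to the spread among these 6 libraries, which may be technical.

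The integrated stress response begins with kinases that phosphorylate the translation factor eIF2. General translation falls and ATF4 is made preferentially, which switches on genes of amino acid supply and redox balance. The unfolded protein response reads misfolded protein in the endoplasmic reticulum through PERK, which is also an eIF2 kinase, and through IRE1 and ATF6. IRE1 splices the Xbp1 transcript and ATF6 is cut at the Golgi, and the factors so made raise chaperones and degradation genes. Counts per gene do not show eIF2 phosphorylation, Xbp1 splicing or ATF6 cleavage. In skin, keratinocytes build the barrier with secreted lipids and adhesion proteins, and fibroblasts depend on ER folding to secrete collagen.

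The ER arm was higher in the libraries labelled knockout and the ATF4 arm was split. In the ATF4 arm 25% of genes were called higher and 37.5% lower. The transcriptome as a whole was mixed too, at 28.7% and 25.1%, so a split alone does not set this arm apart. All 13 chaperone and folding genes rose at least 2-fold, led by Dnajb9 (4.83-fold), Sdf2l1 (4.26-fold) and Dnajb11 (4.00-fold). Of the 5 degradation genes Edem1 rose 7.49-fold, Sel1l and Syvn1 also rose, and Herpud1 and Derl3 were not called. In the ATF4 arm Atf3 rose 11-fold and the mitochondrial folate enzyme gene Mthfd2 4.66-fold. The serine synthesis gene Phgdh fell 10.5-fold there, Psat1 4.45-fold and the mTORC1 inhibitor gene Ddit4 3.48-fold.

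A gene was called at an adjusted p under 0.05 over all 16471 genes tested (edgeR's quasi-likelihood test, Benjamini-Hochberg). Of the 40 members 25 were higher and 6 lower, against 28.7% higher and 25.1% lower over all genes tested (53.8% called in either direction). By arm, 5 of 6 sensor and factor genes were higher and none lower. In the ER arm 16 of 18 were higher and 0 lower, and in the ATF4 arm 4 of 16 were higher and 6 lower. The median log2 fold change was 1.63 in the ER arm, 1.35 in the sensors and their factors and -0.16 in the ATF4 arm, against -0.029 over all genes. Values of the knockout-labelled libraries lay entirely above the wild type for 26 members and entirely below for 6, where 31.9% and 30.4% of all genes did so (62.3% in either direction). At least 2-fold rises were called for 21 members and falls for 4, against 23.5% and 19.5% of all genes. With the replicate number as a block 26 members were higher and 6 lower, against 30.9% and 29.1% of all genes. The median of all genes shifted to -0.18 when libraries were scaled by size alone and to -0.22 by upper quartile, and the ER arm then had 15 and 16 genes called higher.

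**Figure D1:**
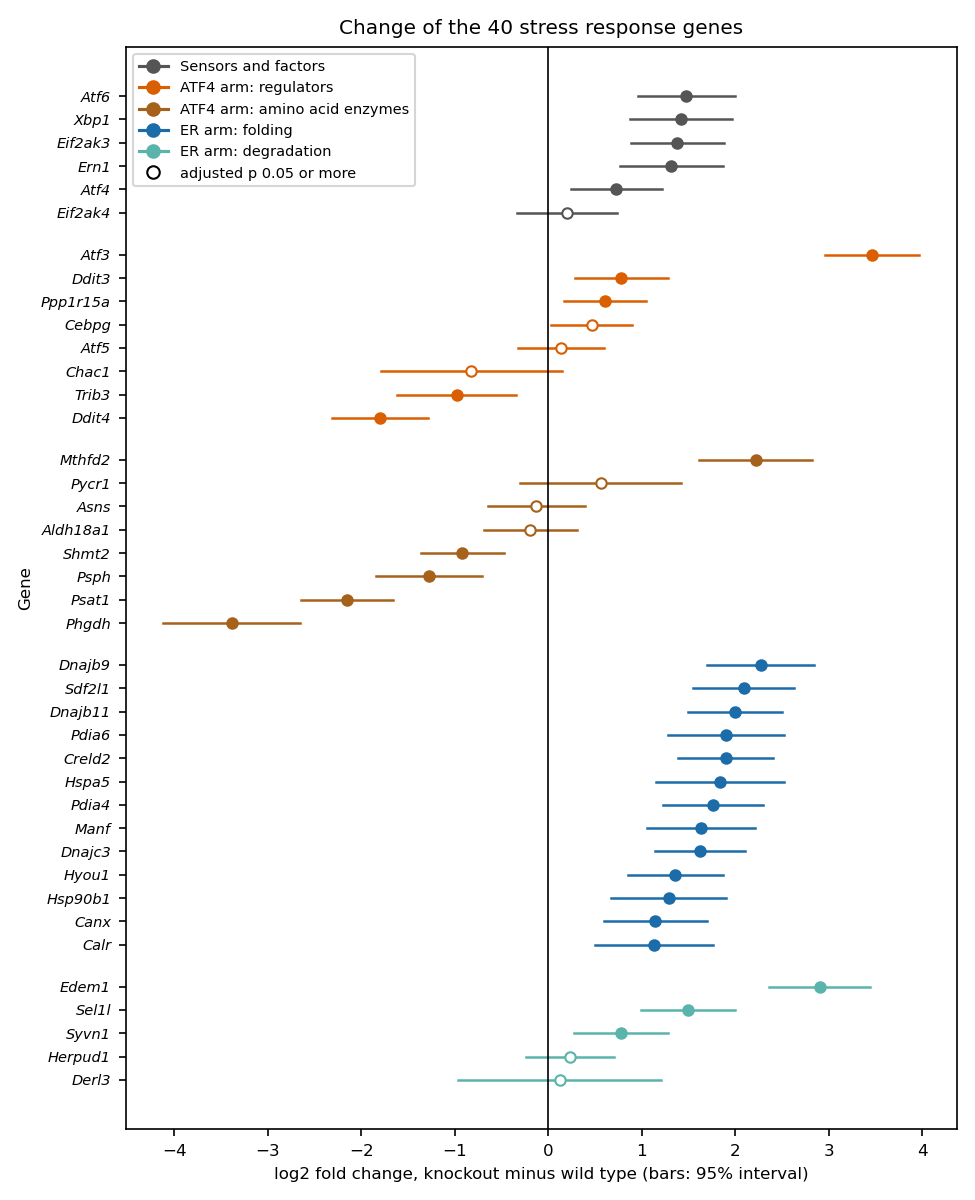
Log2 fold change of each of the 40 genes, knockout-labelled minus wild type libraries (n = 3 each), with its 95% interval as a bar and genes with an adjusted p of 0.05 or more as open circles. The folding genes lie between 1.13 and 2.27, while the amino acid enzymes run from -3.39 for Phgdh to 2.22 for Mthfd2.

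These changes stand in libraries whose cell type markers also moved. Totals ran from 16315317 to 17816327 counts. Paxbp1 itself averaged 86.1 ± 20.6 CPM (read counts scaled to a common library size) in wild type libraries and 92.5 ± 36.2 CPM in those labelled knockout (SD, n = 3 each; edgeR adjusted p = 0.783). The deleted stretch is not stated, and a gene total can hide a short deletion, so the labels stay unchecked and every direction here is that of the libraries so labelled. All 10 keratinocyte markers were lower, Krt5, Krt14 and Trp63 among them, and their summed level went from 84803 to 140600 CPM in the wild type to 4542 to 11920 CPM. Of 10 fibroblast markers 9 were higher (789 to 838 CPM summed, against 3758 to 9639 CPM) and Postn was lower. All 10 macrophage markers were higher (169 to 186 CPM against 9990 to 18773 CPM), as were the 8 neutrophil markers tested of 10 (2.33 to 3.22 CPM against 3522 to 8590 CPM). Retnlg and Ly6g, 2 of the neutrophil markers, had no wild type count. Endothelial markers were higher for 6 of 7 tested of 10 (4.88 to 8.18 CPM against 201 to 368 CPM). Pecam1 made most of the sum in the libraries labelled knockout (250.5 CPM on average), and Vwf came next (13.0 CPM). Egfl7 was not called, although it lay below the wild type in every library labelled knockout. Antibody-secreting cells are rich in ER chaperones, and of 10 plasma and B cell markers 4 were tested, with Cd79b higher and Sdc1 lower. Sdc1, which keratinocytes also express, made most of the list's summed level (294 to 382 CPM against 123 to 219 CPM). The immunoglobulin and plasma cell genes Jchain, Mzb1, Igkc and Tnfrsf17 each averaged under 0.5 CPM in both groups, Igkc and Tnfrsf17 with no wild type count, while the immunoglobulin gene Ighm averaged 3.93 CPM in wild type libraries against 2.16 CPM. Of 8 T cell markers tested of 10, 3 were higher (Thy1, Cd2 and Cd4) and 3 lower (Cd3e, Cd3g and Lck). The list summed to 29.6 to 48.2 CPM in the wild type against 108 to 146 CPM. Most of the latter was Thy1, also on the fibroblast list (17.3 CPM on average in the wild type against 114.7 CPM). Among 8 melanocyte markers 2 were higher and 4 lower (451 to 648 CPM against 233 to 381 CPM). Mast cell markers were higher for 3 and lower for 1 of 4 tested of 8 (39.8 to 53.4 CPM against 36.7 to 40.9 CPM). The 1 lower, Kit, is also on the melanocyte list and made most of the sum (46.3 CPM on average against 28.0 CPM). Cpa3, Cma1 and Tpsb2 rose from averages of 0.236, 0.211 and 0.0953 CPM to 2.20, 4.12 and 2.54 CPM. Tpsab1, Ms4a2 and Fcer1a had no wild type count. Within bulk tissue, fewer cells of a type and less RNA per cell cannot be told apart, and the part of cell makeup in the changes below was not tested.

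The sensor genes encode proteins that read ER stress or amino acid shortage. Here and below, values by library are given for replicates 1 to 3 of the wild type and then, after "against" or "to", for replicates 1 to 3 labelled knockout. Eif2ak3, which encodes the kinase PERK, stood at 19.0, 14.5 and 15.7 CPM in replicates 1 to 3 of the wild type and at 37.5, 39.1 and 51.7 CPM in the libraries labelled knockout (log2 fold change 1.38 ± 0.22 SE, edgeR adjusted p = 0.000378). Ern1, which encodes the RNA-splicing sensor IRE1, had 26.7, 18.6 and 16.7 CPM against 56.9, 40.8 and 57.0 CPM (1.32 ± 0.25, edgeR adjusted p = 0.000992). Atf6, the membrane-bound transcription factor gene, had 34.6, 25.5 and 29.3 CPM against 71.9, 71.4 and 106 CPM (1.48 ± 0.23, edgeR adjusted p = 0.00032). The 3 sensors of ER stress thus rose with log2 fold changes of 1.32 to 1.48. Each lay entirely above the wild type, as did 31.9% of all genes tested. Eif2ak4, which encodes the amino acid sensor GCN2, had 20.4, 13.4 and 16.4 CPM against 21.7, 15.8 and 20.3 CPM. Its groups overlapped and it was not called (edgeR adjusted p = 0.503, 95% interval of the log2 fold change -0.33 to 0.74).

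The factor genes downstream rose as well. Xbp1 stood at 92.9, 135 and 95.5 CPM against 234, 312 and 322 CPM (2.68-fold, log2 1.42 ± 0.25, edgeR adjusted p = 0.000603). Atf4 went from 114, 149 and 122 CPM to 209, 244 and 185 CPM (0.73 ± 0.22, edgeR adjusted p = 0.0159). The rise of Atf4 was the smallest of the 5 called here. It missed the threshold with upper-quartile scaling (edgeR adjusted p = 0.0544) and without wild type replicate 1 (0.0690), wild type replicate 3 (0.0695) or both libraries numbered 1 (0.0566).

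In the folding list every gene was above the wild type in every library labelled knockout, where 31.9% of all genes tested were. Hspa5, which encodes BiP, the Hsp70 chaperone that also holds the stress sensors inactive, had 385, 467 and 345 CPM against 1029, 1800.2 and 1445 CPM (3.57-fold, edgeR adjusted p = 0.000488). Its DnaJ co-chaperones rose with it. Dnajb9 went from 13.7, 13.7 and 16.3 CPM to 48.2, 89.1 and 73.8 CPM (2.27 ± 0.26 on the log2 scale, edgeR adjusted p = 2.94e-05). Dnajb11 went from 50.5, 59.1 and 42.4 CPM to 169, 232 and 207 CPM (4.00-fold, edgeR adjusted p = 2.99e-05). Dnajc3, which encodes the co-chaperone p58IPK, went from 53.6, 63.2 and 54.1 CPM to 141, 186 and 199 CPM (1.62 ± 0.22). All 3 co-chaperone genes thus rose at least 3.08-fold, the value of Dnajc3. Sdf2l1, a partner of BiP and Dnajb11, had 24.1, 28.9 and 19.4 CPM against 78.4, 120.5 and 109 CPM (2.09 ± 0.25, edgeR adjusted p = 3.66e-05). The nucleotide exchange factor gene Hyou1 rose less (87.6, 79.4 and 62.5 CPM against 171, 181 and 235 CPM, log2 fold change 1.36 ± 0.23).

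The remaining folding genes covered the Hsp90, disulfide and lectin systems. Hsp90b1, which encodes GRP94, went from 346, 381 and 319 CPM to 631, 1028 and 897 CPM (log2 fold change 1.29 ± 0.28). The disulfide isomerase genes Pdia4 and Pdia6 rose 3.40-fold and 3.73-fold. For Pdia6 the wild type libraries held 204, 218 and 173 CPM and those labelled knockout 541, 882 and 797 CPM. The secreted ER stress proteins were higher too, Creld2 with 25.2, 30.1 and 21.0 CPM against 80.4, 114 and 90.3 CPM (3.73-fold) and Manf with 65.6, 91.7 and 65.2 CPM against 180.1, 301 and 208 CPM (3.10-fold). The lectin chaperones of the calnexin cycle showed the smallest rises of the list, although their groups did not overlap. Calr had 447, 464 and 373 CPM against 691, 969 and 1149 CPM (1.13 ± 0.29, edgeR adjusted p = 0.00627), and Canx 231, 251 and 218 CPM against 404, 561 and 580.4 CPM (1.14 ± 0.25, edgeR adjusted p = 0.00261).

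Among the libraries labelled knockout, replicate 1 had the lowest value for 13 of 13 folding genes. The summed ER arm was 5110 CPM there, against 7601 and 7304 CPM in replicates 2 and 3, and 2311, 2502 and 2022 CPM in the wild type. Replicate 1 also had the lowest summed macrophage, fibroblast and neutrophil markers of its group (9990, 3758 and 3522 CPM, against 15268, 7457 and 8590 CPM in replicate 2 and 18773, 9639 and 6746 CPM in replicate 3). Its summed endothelial, T cell, melanocyte and mast cell markers were the lowest of the group as well. Keratinocyte markers (11470, 11920 and 4542 CPM in knockout replicates 1 to 3) were lowest in replicate 3. So were plasma and B cell markers (199, 219 and 123 CPM). Whether the ER genes follow any of these cells was not tested. Without knockout replicate 1 the ER arm again had 16 genes called higher.

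Promoters of many ER arm genes hold a sequence that the choice by symbol did not use, although elements of this kind were first described in promoters of such genes. The ER stress response element (ERSE, here CCAAT, 9 bases of any kind and CCACG, on either strand) is bound by the factor NF-Y at its CCAAT end and by ATF6 or XBP1 at its CCACG end. It was searched in the 250 bases before each RefSeq transcription start (GRCm38.p6), and 37 members had an entry. It was present for 7 of 11 folding genes and 2 of 5 degradation genes, 56.2% of the ER arm, and for 0 of 16 genes of the ATF4 arm. Over all 27025 genes with an entry, 0.13% held it. The windows below show the element in capitals, 5′ to 3′ along the gene, for folding genes that rose (Hspa5, Pdia6, Creld2, Calr), for Syvn1, which rose, and for Derl3, which was not called.
Hspa5: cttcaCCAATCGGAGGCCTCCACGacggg
Pdia6: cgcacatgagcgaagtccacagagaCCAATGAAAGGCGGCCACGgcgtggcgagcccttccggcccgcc
Creld2: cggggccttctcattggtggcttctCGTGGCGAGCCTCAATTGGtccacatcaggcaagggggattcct
Calr: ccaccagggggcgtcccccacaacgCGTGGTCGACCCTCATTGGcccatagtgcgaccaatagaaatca
Syvn1: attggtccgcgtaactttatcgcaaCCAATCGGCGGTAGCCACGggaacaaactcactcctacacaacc
Derl3: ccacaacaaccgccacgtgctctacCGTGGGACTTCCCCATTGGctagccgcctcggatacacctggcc

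These windows lie at chr2:34772020-34772048 (Hspa5, plus strand), chr12:17266466-17266534 (Pdia6, plus), chr15:88819495-88819563 (Creld2, plus), chr8:84847050-84847118 (Calr, minus), chr19:6046507-6046575 (Syvn1, plus) and chr10:75893217-75893285 (Derl3, plus). In Creld2, Calr and Derl3 the element reads in reverse, so it begins with CGTGG. Hspa5 as counted here starts at 34771970, before its match, which lies in an exon of a protein-coding gene in GENCODE M21. Its window therefore has 5 flanking bases on each side, not 25. Matches of Hsp90b1, Dnajc3 and Canx complete the 9 genes, and Hsp90b1 held 2. The first base of the 10 matches lay between 44 and 212 bases before the start. Dnajb9, Dnajb11, Sdf2l1, Pdia4, Edem1 and Sel1l rose without these letters in the window, and Atf6, Hyou1 and Manf had no entry. The element UPRE (TGACGTGG) had 0 matches in the 37 members and 0.603% over all genes. A match is a description of the letters and not evidence of binding.

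**Figure D2:**
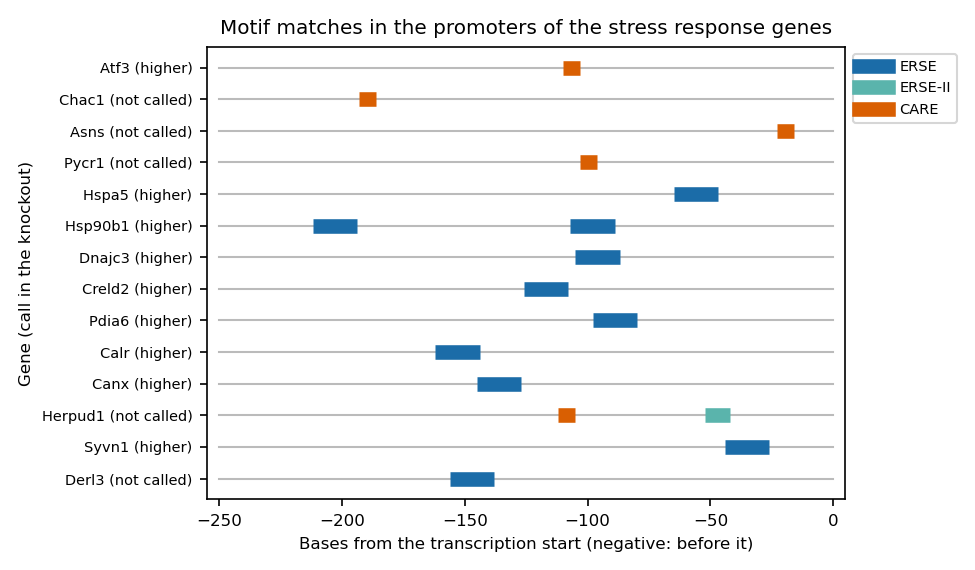
Position of each motif match in the 250 bases before the RefSeq transcription start of the 14 members that hold one; the horizontal axis is the distance to the start in bases, and the call of each gene stands beside its name. ERSE matches fall in the ER arm only, with 8 of their 9 genes called higher. In the whole ER arm 16 of 18 genes were called higher, and 28.7% of all genes tested were. CARE matches fall in Atf3, Chac1, Asns, Pycr1 and Herpud1, of which Atf3 was called higher.

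ER-associated degradation genes did not move as 1 block. Edem1, which encodes a mannosidase-like protein that hands misfolded glycoproteins to the degradation machinery, had 46.7, 43.9 and 37.8 CPM against 251, 337 and 373 CPM (log2 fold change 2.90 ± 0.25, edgeR adjusted p = 3.26e-06). Sel1l, the adaptor of the membrane ligase complex, had 72.6, 66.0 and 59.9 CPM against 159, 167 and 234 CPM (2.82-fold, edgeR adjusted p = 0.000233). Syvn1, which encodes the ligase Hrd1 of that complex, had 54.4, 45.2 and 39.4 CPM against 87.7, 61.5 and 89.0 CPM (0.78 ± 0.23, edgeR adjusted p = 0.0135). These 3 genes lay entirely above the wild type, as did 31.9% of all genes tested. Syvn1 missed the threshold with library-size scaling (edgeR adjusted p = 0.0644) and without wild type replicate 3 (0.0694).

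Herpud1, which encodes a membrane protein of the Hrd1 complex, had 48.6, 57.9 and 41.9 CPM against 49.0, 58.8 and 66.7 CPM. The groups overlapped (edgeR adjusted p = 0.383, 95% interval of the log2 fold change -0.24 to 0.71), an interval that ends below the values of Edem1 and Sel1l. Derl3, a derlin of secretory cells, was low in all libraries, with 1.31, 0.856 and 0.69 CPM against 1.08, 0.915 and 1.11 CPM (edgeR adjusted p = 0.852). Herpud1 is also described as a target of ATF4. Its promoter window holds both a CARE (TTGCATCA, the first capitals) and the compact ERSE-II element (ATTGG, 1 base of any kind and CCACG, the second; in 0.037% of all genes with an entry and no other member), at chr8:94386292-94386412 on the plus strand.
Herpud1: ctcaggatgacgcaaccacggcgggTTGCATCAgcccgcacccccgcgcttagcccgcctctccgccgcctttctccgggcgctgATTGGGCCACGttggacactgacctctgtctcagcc

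Of the 8 regulators in the ATF4 arm 3 rose, 2 fell and 3 were not called, with a median log2 fold change of 0.30. The 37.5% higher and 25% lower were near the 28.7% and 25.1% of all genes tested. Atf3, a stress-induced bZIP factor gene that ATF4 and other signals induce, went from 4.80, 6.24 and 5.78 CPM to 53.2, 66.6 and 65.8 CPM (3.46 ± 0.23, edgeR adjusted p = 6.24e-07). No wild type library came near the lowest of the libraries labelled knockout. Ddit3, which encodes the pro-apoptotic factor CHOP, had 12.9, 13.0 and 11.5 CPM against 20.8, 25.5 and 18.2 CPM (0.78 ± 0.22, edgeR adjusted p = 0.0124). Ppp1r15a, which encodes the eIF2 phosphatase subunit GADD34, had 21.9, 22.1 and 21.8 CPM against 37.9, 32.5 and 30.0 CPM (0.61 ± 0.20, edgeR adjusted p = 0.0242). Ddit3 missed the threshold without wild type replicate 3 (edgeR adjusted p = 0.0564). Ppp1r15a missed it without any 1 wild type library, without both libraries numbered 1, with no filter and with library-size or upper-quartile scaling (edgeR adjusted p 0.0755 to 0.103).

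Of the remaining 5 regulators, Ddit4 and Trib3 were called lower and the other 3 were not called. Ddit4, which encodes REDD1, an inhibitor of mTORC1, fell from 244, 219.8 and 274 CPM to 60.1, 86.8 and 64.8 CPM (log2 fold change -1.80 ± 0.23, edgeR adjusted p = 6.82e-05). Trib3, which encodes a pseudokinase that feeds back on ATF4, fell from 25.7, 36.1 and 24.4 CPM to 17.3, 17.2 and 9.17 CPM (-0.98 ± 0.29, edgeR adjusted p = 0.0145). Without wild type replicate 2 its log2 fold change was -0.79 and the call was lost (edgeR adjusted p = 0.0639). Chac1, a glutathione-degrading enzyme gene, had 2.51, 8.31 and 5.46 CPM against 3.57, 3.20 and 2.42 CPM. Its groups overlapped and it was not called (edgeR adjusted p = 0.138), although it was called lower without wild type replicate 1 (0.0334) or without both libraries numbered 1 (0.0233). Cebpg, the bZIP partner of ATF4, had 85.7, 98.7 and 92.6 CPM against 114, 139 and 130 CPM. It was above the wild type in 3 of 3 libraries yet not called (edgeR adjusted p = 0.0652), and it was called higher with the replicate block (0.0249), with a filter of at least 1 CPM in 3 libraries (0.0474), without knockout replicate 1 (0.0316) and by DESeq2 (0.0397). Atf5 had overlapping groups (45.1, 49.5 and 55.3 CPM against 45.5, 64.2 and 55.2 CPM, edgeR adjusted p = 0.601).

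The 8 amino acid enzymes contained the 2 largest falls of the 40 genes. Phgdh, which encodes the first enzyme of serine synthesis, had 211, 302 and 282 CPM against 28.2, 33.4 and 14.4 CPM (log2 fold change -3.39 ± 0.33, edgeR adjusted p = 9.63e-06). Psat1, the second enzyme, had 231, 295 and 309 CPM against 68.3, 62.6 and 56.6 CPM (-2.15 ± 0.22, edgeR adjusted p = 1.52e-05). Psph, the third, had 20.7, 23.5 and 20.6 CPM against 7.36, 11.96 and 7.56 CPM (-1.27 ± 0.26, edgeR adjusted p = 0.00161). All 3 steps of the pathway were thus lower in every library labelled knockout than in any wild type library, as were 30.4% of all genes tested. Shmt2, which passes the serine carbon to folate in mitochondria, fell less, from 108, 100.2 and 97.0 CPM to 62.2, 52.3 and 47.4 CPM (-0.92 ± 0.20, edgeR adjusted p = 0.0025).

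Mthfd2, whose product oxidises that folate in the next mitochondrial step, rose instead. It went from 6.17, 3.79 and 4.35 CPM to 23.0, 25.6 and 18.3 CPM (log2 fold change 2.22 ± 0.27, edgeR adjusted p = 5.3e-05), with groups that did not overlap. The other 3 enzymes were not called. Asns, the asparagine synthetase gene and a standard readout of ATF4, had 27.2, 34.1 and 29.4 CPM against 32.9, 30.0 and 20.3 CPM (edgeR adjusted p = 0.678, 95% interval of the log2 fold change -0.64 to 0.39). The proline synthesis gene Aldh18a1 had 38.4, 27.8 and 34.3 CPM against 25.4, 26.7 and 35.9 CPM (edgeR adjusted p = 0.501). Pycr1, the last enzyme of proline synthesis, had 2.73, 2.69 and 2.87 CPM against 2.72, 3.53 and 6.01 CPM (edgeR adjusted p = 0.247), with the highest value in knockout replicate 3.

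Neighbouring one-carbon enzymes outside the 40 genes moved in both directions. The mitochondrial gene Mthfd1l, which follows Mthfd2 in the pathway, rose by 2.39 ± 0.28 on the log2 scale, with 7.50 ± 0.883 CPM in the wild type against 39.4 ± 13.7 CPM (edgeR adjusted p = 3.9e-05). The cytosolic genes Mthfd1 and Shmt1 fell from 76.1 ± 13.3 to 18.9 ± 2.24 CPM and from 66.1 ± 3.00 to 14.8 ± 7.02 CPM (SD, n = 3; edgeR adjusted p = 2.24e-05 and 0.000142). The mitochondrial gene Mthfd2l fell as well (-1.02 ± 0.26), so direction did not follow compartment throughout. Shmt1 and Mthfd2l were named after their values were seen.

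**Figure D3:**
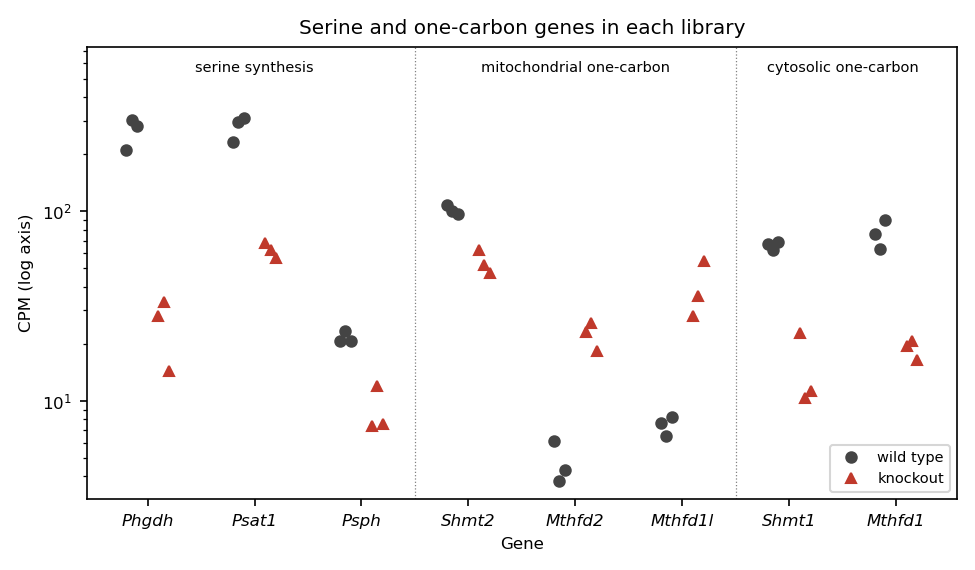
CPM in each library (logarithmic axis; dark grey circles wild type, red triangles knockout-labelled, n = 3 each) of serine synthesis and one-carbon genes; CPM is not scaled by gene length, so groups are to be compared within a gene. Phgdh, Psat1, Psph, Shmt2, Shmt1 and Mthfd1 are lower and Mthfd2 and Mthfd1l higher in every library labelled knockout.

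The element through which ATF4 acts with C/EBP partners (CARE, here TGATGNAA on either strand) was present in the window of 4 of 16 genes of the ATF4 arm, against 3.91% of all genes with an entry. Of these 4, Atf3 rose and Asns, Chac1 and Pycr1 were not called. Windows of Atf3, Asns and Pycr1 are shown, as the called gene and a pair of uncalled ones, with the element in capitals.
Atf3: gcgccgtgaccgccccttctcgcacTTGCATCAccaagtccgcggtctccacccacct
Asns: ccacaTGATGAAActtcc
Pycr1: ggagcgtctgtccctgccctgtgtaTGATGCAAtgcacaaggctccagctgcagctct

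They lie at chr1:191183411-191183468 (Atf3), chr6:7693220-7693237 (Asns) and chr11:120643819-120643876 (Pycr1), all on the minus strand. Atf3 as counted here spans 191170296 to 191218039, so its window lies within the counted gene, before a RefSeq start further along it. The Asns match, like that of Hspa5, lies in an exon of a protein-coding gene in GENCODE M21, so its window is short. The falling genes Phgdh, Psat1, Psph, Shmt2, Ddit4 and Trib3 had no such letters in the window, nor had Mthfd2. Elements further away, or in introns, were not searched.

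Of 130 further genes of these pathways 127 were tested, 56 were higher (44.1%) and 22 lower (17.3%), against 28.7% and 25.1% of all genes tested. Among 32 other genes of ER folding and protein entry, 26 were higher and 0 lower, with a median log2 fold change of 0.92. The isomerase genes Pdia5 (1.97 ± 0.239 to 21.3 ± 7.99 CPM, edgeR adjusted p = 1.23e-05) and Fkbp14 (1.80 ± 0.194 to 15.5 ± 4.25 CPM, 1.4e-05) had the smallest adjusted p. Fkbp14 acts on collagen, and fibroblast markers were higher in the same libraries (9 of 10, as above); their part in this was not tested. Of 19 other degradation genes 14 were higher and 0 lower (median 1.00), with the ubiquitin-conjugating enzyme gene Ube2j1 (log2 fold change 1.68 ± 0.21) and the signal peptide peptidase gene H13 (1.24 ± 0.20) first. Of 9 further ER stress factors, 8 of them tested, only Creb3 was called (1.06 ± 0.21, edgeR adjusted p = 0.00138). That count was 3 without knockout replicate 1 and 2 without knockout replicate 2 or both libraries numbered 1, and 1 gene was lower with the replicate block or with library-size or upper-quartile scaling. Ern2, the IRE1 gene of mucous epithelia, had no count in any library.

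Of 22 other ATF4 targets, 20 of them tested, 9 were higher (45%) and 6 lower (30%), the latter near the 25.1% of all genes. With the replicate block 11 were higher and 7 lower, against 30.9% and 29.1% of all genes. Over the 18 alternatives 7 to 11 were higher and 6 to 7 lower. Jdp2, a bZIP repressor gene, rose from 1.38 ± 0.932 to 68.9 ± 14.2 CPM, and the cystine carrier gene Slc7a11 from 9.42 ± 2.26 to 55.2 ± 5.32 CPM (edgeR adjusted p = 1.59e-06 and 8.28e-06). The transsulfuration gene Cbs fell from 38.2 ± 2.16 to 0.672 ± 0.155 CPM and the leucine carrier gene Slc7a5 from 97.6 ± 16.6 to 32.0 ± 5.51 CPM (edgeR adjusted p = 1.79e-07 and 0.000124). Slc3a2, named after its values were seen, encodes the heavy chain that pairs with both carriers and rose (1.10 ± 0.21). Among 15 one-carbon and proline genes 9 were lower and 2 higher, and the glycine cleavage gene Gldc was among those lower (-3.38 ± 0.45).

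Of 20 aminoacyl-tRNA synthetase genes, many of them ATF4 targets, 2 were higher and 4 lower, against the 28.7% and 25.1% of all genes. Aars (1.12 ± 0.21) and Nars (0.93 ± 0.23) rose and Vars (-1.20 ± 0.21) and Qars (-0.65 ± 0.20) fell. The number lower was 7 with the replicate block or library-size scaling, 9 with upper-quartile scaling and 1 without wild type replicate 2 or 3, and Qars was among the calls lost on leaving out either. Of 13 genes of eIF2 and its regulation 2 were higher and 3 lower. The interferon-inducible kinase gene Eif2ak2 rose from 15.8 ± 3.14 to 64.4 ± 23.4 CPM (edgeR adjusted p = 0.000149) and the constitutive phosphatase subunit gene Ppp1r15b by a log2 fold change of 1.35 ± 0.20 (0.000204). The exchange factor subunit genes Eif2b3 (-0.95 ± 0.22) and Eif2b1 (-0.83 ± 0.24) fell. Without wild type replicate 2, Eif2b1 was not called (edgeR adjusted p = 0.0584) and 1 gene of this list was lower.

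Levels of different genes were compared on the deposited FPKM (fragments per kilobase, scaled to library size), which is scaled by gene length. In the wild type the highest mean was that of Calr (145 ± 16.6 FPKM), followed by Ddit4 (137 ± 14.8), Phgdh (104 ± 20.3), Hspa5 (92.1 ± 15.1) and Hsp90b1 (84.5 ± 8.15; SD, n = 3). Calr and Ddit4 did not differ beyond their SD, nor did Phgdh and Hspa5, or Hspa5 and Hsp90b1. Ddit4 and Phgdh were further apart than either SD. In the libraries labelled knockout Hspa5 (335 ± 90.1 FPKM) and Calr (324 ± 82.0) stood first with overlapping spreads, then Hsp90b1 (210 ± 49.9), Pdia4 (201 ± 34.0) and Pdia6 (197 ± 47.2). Phgdh was at 10.1 ± 3.85 FPKM there, level with Asns (10.1 ± 2.33). Eif2ak4, Chac1, Pycr1 and Derl3 had means under 4 FPKM in both groups.

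**Figure D4:**
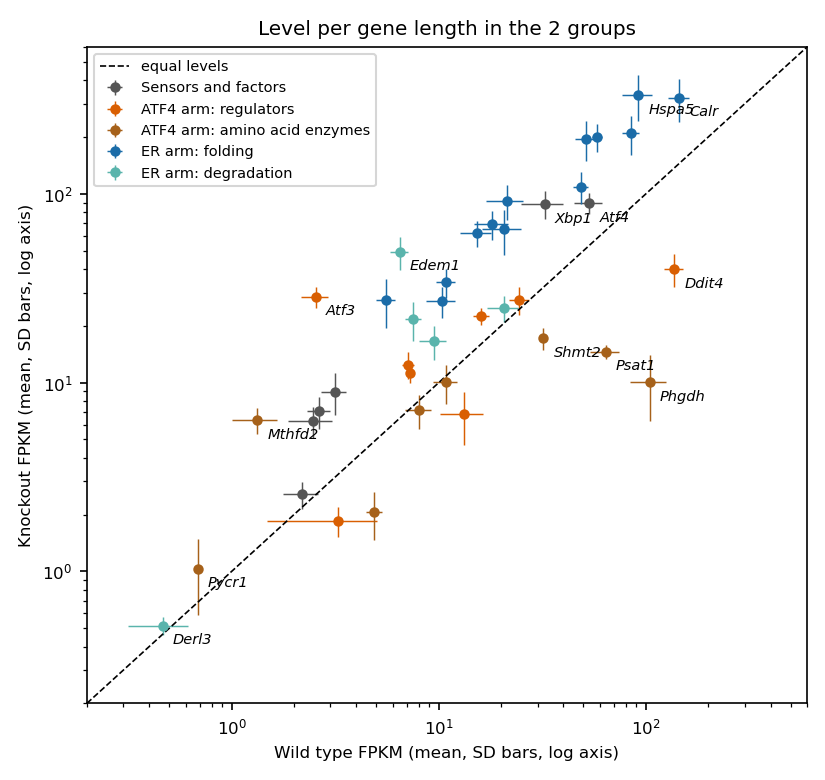
Mean FPKM of each of the 40 genes in the wild type (horizontal) and knockout-labelled (vertical) libraries on logarithmic axes, with SD bars (n = 3 each) and a dashed line of equal levels. The folding genes lie above the line, and Phgdh, Psat1, Shmt2 and Ddit4 below it.

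The spread among libraries of a group was moderate. The median coefficient of variation of the 40 genes was 14.4% in the wild type and 18.5% in the libraries labelled knockout, against 17.5% and 26.6% over all genes tested. Exons of 13 members share bases with exons of other genes in GENCODE M21. The shared part was 10.4% of Psph (with the opposite-strand Cct6a, 18050 counts over the 6 libraries against 1587 for Psph) and 10.3% of Hsp90b1. Because the strand setting of the counting is not given, reads in such stretches could belong to either gene. For Ddit3, a second entry of the same symbol covering 105 shared bases had 0 counts and was not used.

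**Figure D5:**
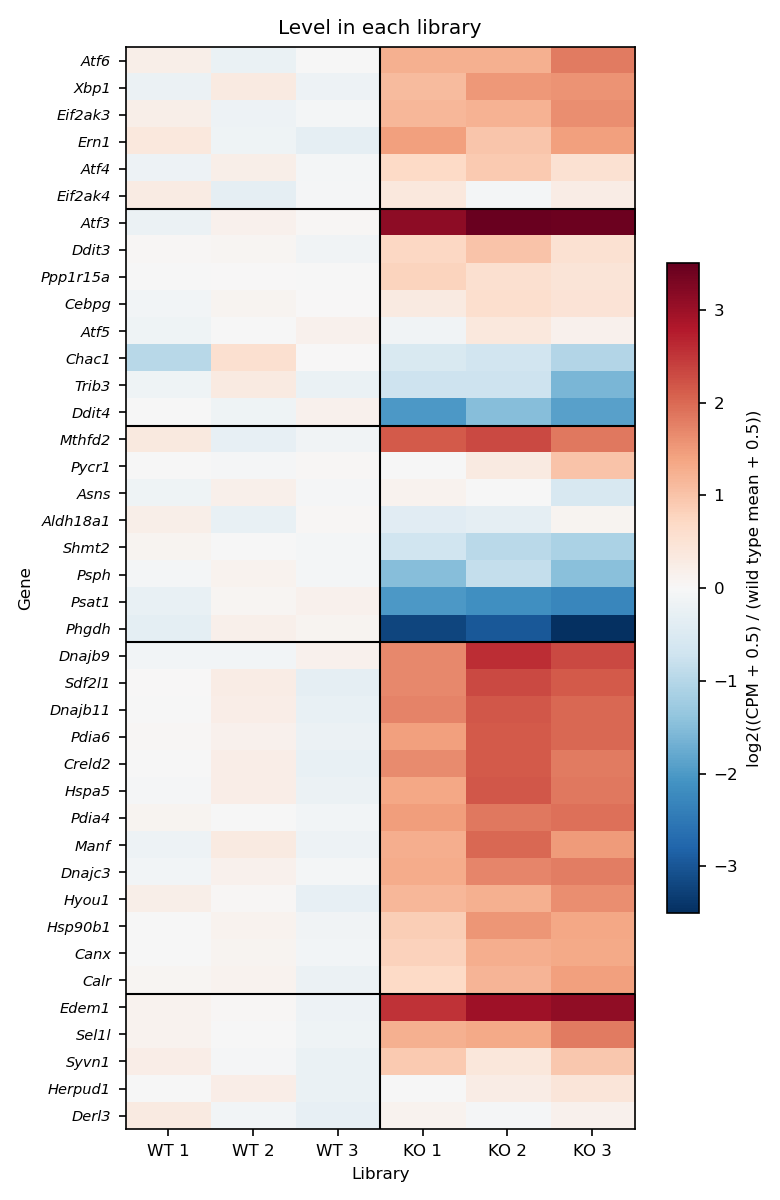
Level of each gene in each library as log2 of (CPM + 0.5) over (wild type mean + 0.5), with lists separated by horizontal lines and the genotypes by a vertical line (WT wild type, KO labelled knockout, replicates 1 to 3). Knockout replicate 1 is the palest of its group for all 13 folding genes.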

How the data were processed

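Library kit, strand and counting parameters: not given in the sources used here. Per the submitters' processing notes, HISAT2 2.0.5, featureCounts 1.5.0-p3 and mm10 were used. The authors deposited whole-number read counts per gene and, in a second table, FPKM values for the same 6 libraries; how FPKM was computed is not given. Every row named a gene.

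edgeR 4.0.16 (R 4.3.3) was fitted to the deposited counts of all genes with genotype as the only term, TMM scaling, filterByExpr (at least 10 counts, and 15 in total), robust dispersions and the quasi-likelihood test, which left 16471 genes. The filter kept at least 99.7% of each library's counts. CPM values use the TMM factors. SE was taken as the size of the log2 fold change divided by the root of F, and 95% intervals use its t quantile. The test was tried on simulated data, and no result of that trial is used here.

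Members, lists and tests were chosen with earlier results of these data known. Values per library were to be given for all sensors and, per list, for the 3 called members of smallest adjusted p in each direction; the other members were added after their values were seen. Of other pathway lists, the 2 called genes of smallest adjusted p in each direction are named, except 1 that is not reported here. Old symbols were matched through RefSeq synonyms. Deviations from group means correlated at 0.232, 0.339 and 0.176 for libraries sharing a replicate number, and at -0.323 to 0.0734 otherwise; what a number marks is not stated in the labels. Libraries of a group differed beyond sampling noise. Alternatives were other scalings and filters, DESeq2 1.42.0, limma 3.58.1 (voom, and log2(FPKM + 1) or log2(FPKM + 0.1)), no robust estimation, the replicate block, and left-out libraries. Motifs were matched as exact letters in RefSeq promoters (GRCm38.p6).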

Additional observations from a re-analysis of the deposited data

How the results depend on the processing

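Over 18 alternatives the members called higher numbered 21 to 26 and lower 5 to 7, with 15 or 16 higher and 0 lower in the ER arm. In the ATF4 arm 2 to 5 were higher and 5 to 7 lower on leaving out 1 library each; it had 2 higher without wild type replicate 3, since Ddit3 and Ppp1r15a were lost. Genes called over the whole table numbered 4151 to 5321 higher and 3388 to 5147 lower. Other pathway genes numbered 46 to 61 higher and 16 to 29 lower. No called member changed direction. Members that were not called changed sign as follows, and the cause was not tested: Atf5 (log2 fold change -0.058 with upper-quartile and -0.027 with library-size scaling), Asns (-0.26 to 0.061 on leaving out 1 library each, positive without knockout replicate 3), Aldh18a1 (0.0019 without both libraries numbered 1) and Derl3 (-0.071 with upper-quartile and -0.038 with library-size scaling, and -0.050 to 0.42 on leaving out 1 library each, negative without wild type replicate 3). With the replicate block 26 members were higher and 6 lower, and of the 40 members the block changed the call of Cebpg only (log2 fold change 0.46). The pairing rests on the correlation of deviations alone. Cebpg was also called higher in 3 other alternatives. Derl3, with 13 to 24 counts per library, had the fewest counts of the members.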
